A study of Mus musculus with 6 samples.

Results

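The genes described here are 47 members of the type I interferon response, chosen by name: the ligand Ifnb1, both receptor chains, the transcription factors Stat2, Irf9 and Irf7, and 41 genes that interferon induces, among them RNA sensors, antiviral effectors and ubiquitin-like modifiers. A member was measured where a probeset named it and no other gene, and where several did, the one with the highest mean was used. This left 45 of 47 members, out of 19938 genes on the array. Isg15 and Ifi44 are not analysed here. The cells were primary osteoblasts grown out of long bones of 3 male wild-type C57BL6/J mice, 8 to 12 weeks old and numbered 2, 4 and 5, which were used at passage 2 to 3 and kept for 14 days in osteogenic medium. The cells of a mouse were split into an unstimulated culture and a culture stimulated for 4 h with 100 ng/ml of C5a, a peptide cleaved from complement factor C5, and both were kept in normal proliferation medium during that time. Each culture gave 1 array, so that there were 3 arrays per group and 3 pairs of cultures from the same animal, and the number of arrays limits the precision. Levels are log2 signals, changes are C5a minus unstimulated on the log2 scale, and a change of 1 is 2-fold. They come from all cells in a well, in which fewer cells of a type and less RNA per cell cannot be told apart.

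Type I interferons are secreted proteins that bind a receptor of the chains IFNAR1 and IFNAR2 and through the kinases JAK1 and TYK2 activate STAT2 and a further STAT. Together with IRF9 these form the factor ISGF3, which enters the nucleus and binds interferon-stimulated response elements in front of antiviral genes. Many cells run this loop at a low level without infection, and several of its own components, such as STAT2, IRF9 and IRF7, are among the induced genes. In bone, interferon-β is known as a brake on osteoclast formation.

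The core of the response element, a pair of GAAA tetramers with any 2 bases between them (GAAANNGAAA, or TTTCNNTTTC on the other strand), was searched for in the promoter sequences of RefSeq (mouse genome GRCm38.p6), each with 250 bases before and 50 bases from the start of the gene. Of the 45 measured members 35 had a promoter sequence, and 14 of these (40%) held at least 1 match on either strand, against 3.44% of all 32851 promoters. Members were counted per gene, where a match in any promoter of the gene sufficed, whereas the background was counted per promoter. Matches can overlap, as in Bst2, Oas1a and Trim21, where neighbouring matches share a tetramer. The sequences below are shown because they hold the same element before or just after the start of members whose values differed widely with C5a. Ifit1, Ifit3, Stat2, Rigi, Eif2ak2 and Trim21 were at least 1.5-fold lower, whereas Oas1a, Oas3, Rsad2 and Bst2 were not. Capitals mark the matches, and each sequence is written 5′ to 3′ on the strand of its gene.
Ifit1 (chr19:34640770-34640828, plus strand): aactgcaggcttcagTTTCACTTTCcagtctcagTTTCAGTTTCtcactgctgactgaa
Ifit3 (chr19:34583358-34583431, plus strand): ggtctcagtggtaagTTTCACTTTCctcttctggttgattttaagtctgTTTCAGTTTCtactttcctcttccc
Stat2 (chr10:128270261-128270300, plus strand): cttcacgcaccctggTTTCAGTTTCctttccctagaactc
Rigi (chr4:40239814-40239838, minus strand): agcgccctgaggcagTTTCGATTTC
Eif2ak2 (chr17:78882545-78882569, minus strand): ggcggagtccgccggGAAAACGAAA
Trim21 (chr7:102565454-102565484, minus strand): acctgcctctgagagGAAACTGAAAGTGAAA
Oas1a (chr5:120907526-120907560, minus strand): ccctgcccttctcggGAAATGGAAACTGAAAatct
Oas3 (chr5:120777710-120777749, minus strand): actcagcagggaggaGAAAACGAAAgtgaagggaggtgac
Rsad2 (chr12:26456548-26456587, minus strand): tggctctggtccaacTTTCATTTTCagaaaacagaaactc
Bst2 (chr8:71537572-71537617, minus strand): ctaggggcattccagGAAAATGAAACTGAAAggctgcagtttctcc

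Among the members with a promoter sequence, 8 of the 15 that passed the study's thresholds and 6 of the other 20 held a match. The latter were Oas1a, Oas3, Rsad2, Bst2, Ifitm2 and Ifitm3. The matches of Rigi, Eif2ak2 and Trim21 lay in the first 29 bases of the gene, and those of Ifit1 and Ifit3 between 156 and 76 bases before it. Irf9, Samd9l, Herc6 and Ifit2 were lower with C5a and held no match in this window. A match is a description of the sequence and not a measured binding site.

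Most of the set was lower in C5a-stimulated osteoblast cultures. Of the 45 measured members 44 had a log2 fold change below 0, with a median of -0.51 against -0.01 over all genes. The study's thresholds (unadjusted p under 0.05, at least 1.5-fold) were passed by 19 members in the lower direction (1.57% of all 35556 probesets) and by 0 in the higher direction (1.71% of all probesets). The test was limma with the mouse as a block. At an unadjusted p under 0.05 alone 33 members were lower (8.58% of all probesets) and 0 higher (7.61% of all probesets). Members are single probesets of named genes, and the shares over such genes differ from those over all probesets. Of all 19938 genes, with 1 probeset each, 440 were lower and 443 higher past both thresholds. At the unadjusted p from limma alone, 2376 genes were lower and 1647 higher. After Benjamini-Hochberg adjustment over the whole array 0 members passed (0.0112% of all probesets), and the smallest adjusted p from limma was 0.0858, for Rtp4. The plot of changes by mouse gives every member.

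**Figure D1:**
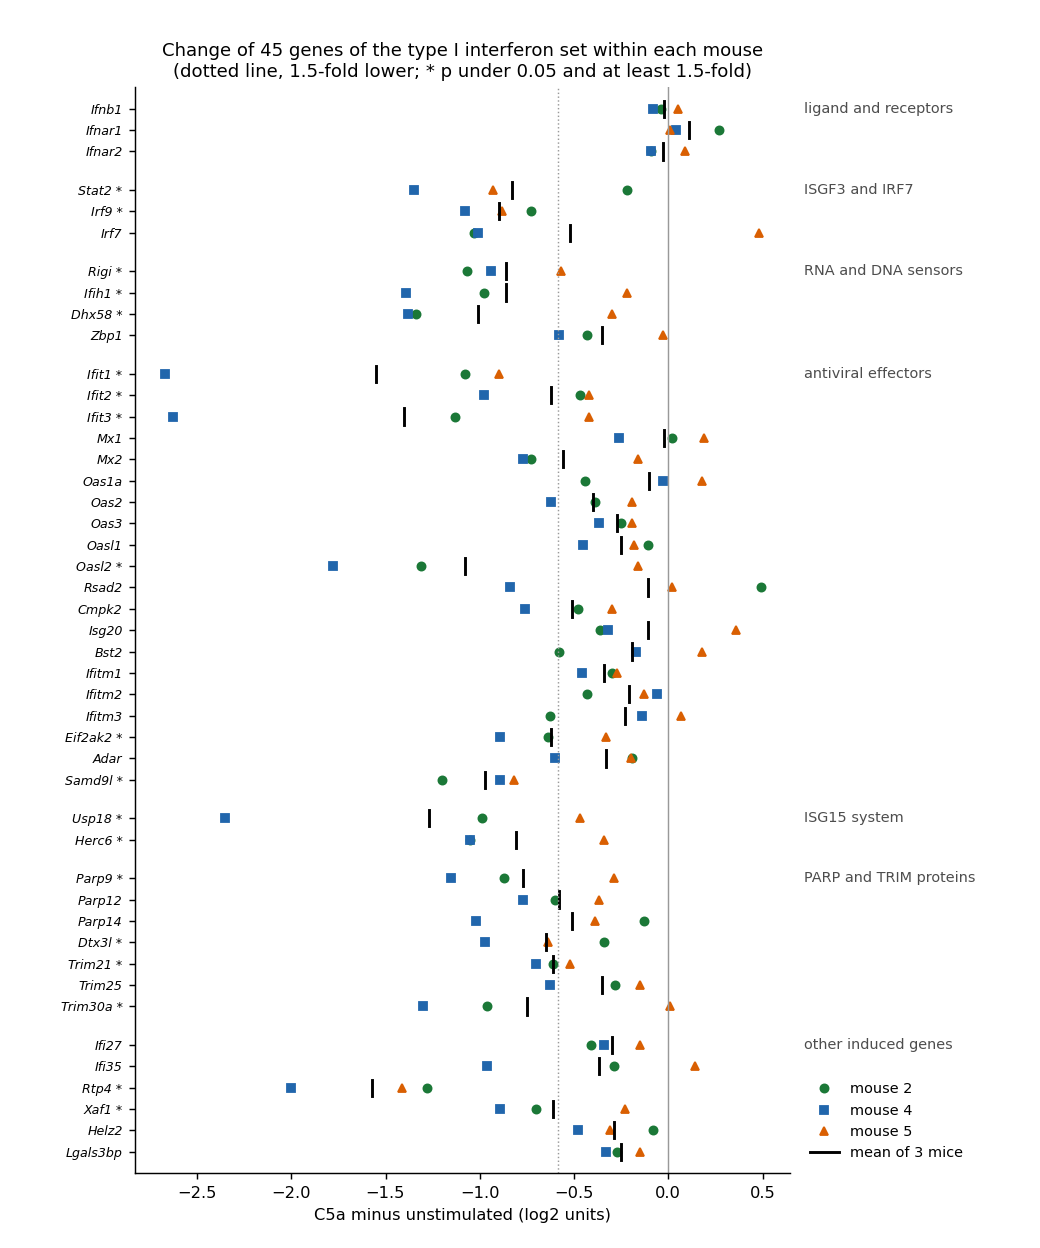
Change of each of 45 measured members within each of 3 mice, as C5a minus unstimulated in log2 units, grouped by role. Points are mice, black bars are means of 3 mice, the dotted line is 1.5-fold lower, and asterisks mark the 19 members with an unadjusted p under 0.05 and at least 1.5-fold lower. Of the points to the right of 0, 12 belong to mouse 5, 3 to mouse 2 and 1 to mouse 4.

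Within the mice, 33 members were lower in all 3 (17.7% of all probesets and 4575 of all 19938 genes were). The other 12, Ifnb1, Ifnar1, Ifnar2, Irf7, Mx1, Oas1a, Rsad2, Isg20, Bst2, Ifitm3, Trim30a and Ifi35, were higher in mouse 5, in which 51.1% of all probesets were lower, whereas 3 members were higher in mouse 2 and 1 in mouse 4. For 18 members all C5a arrays lay below all unstimulated arrays (7.29% of all probesets and 1983 of all 19938 genes). The count of 19 rested in part on single mice. It was 13 without mouse 2, 10 without mouse 4 and 23 without mouse 5, and Irf9, Rigi, Ifit1, Samd9l, Herc6 and Rtp4 passed in each of these fits. Of all 35556 probesets 558 were lower past both thresholds with all mice, and 476, 745 and 711 without mouse 2, 4 and 5. Without mouse 2 the thresholds were missed by Ifih1, Dhx58, Ifit3, Oasl2, Usp18, Trim30a and Xaf1 and passed by Parp14 in addition. Without mouse 4 they were missed by Stat2, Ifit2, Oasl2, Eif2ak2, Parp9, Dtx3l, Trim21, Trim30a and Xaf1. Without mouse 5 Stat2 missed them, and Irf7, Mx2, Cmpk2, Parp12 and Ifi35 passed. The median change of the set was -0.47, -0.29 and -0.62 without mouse 2, 4 and 5. With the methods' t-test, which does not pair the mice, 12 of the 19 passed, and with its paired form 5 did. Of all probesets 291 were lower past both thresholds with either form.

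The values of the interferon-β gene and of both receptor genes changed little with C5a. Ifnb1 had 5.11, 5.07 and 4.99 in unstimulated cells of mice 2, 4 and 5 and 5.08, 4.99 and 5.04 with C5a. Its level was at the 34.4th percentile of the array, the groups overlapped, and the change was -0.02 (standard error 0.07, adjusted p = 0.933 from limma). At a level this low a fall of Ifnb1 could be missed. Ifnar1, the chain that binds TYK2, had 9.22, 9.36 and 9.19 in unstimulated cells and 9.49, 9.41 and 9.21 with C5a. It was the single member with a mean change above 0, of 0.11 (standard error 0.08, adjusted p = 0.655), and mouse 2 gave most of it. Ifnar2, the chain that carries JAK1, had 10.83, 9.92 and 9.93 without and 10.74, 9.83 and 10.02 with C5a. Mouse 2 was high for Ifnar2 in both groups, and the change of -0.03 (standard error 0.08, adjusted p = 0.931) was far below this difference between mice. A further 13 ligands, mainly of the interferon-α family, had a median change of 0.02 with values from -0.09 to 0.18, and 0 of them passed the study's thresholds. Their median level on the 6 arrays was 4.80 to 5.02, below the median of all genes of 6.44 to 6.55, and a fall could be missed here too. The sequences of the interferon-α genes are near-identical, so that a probeset can report several of them.

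Both measured parts of ISGF3 were lower. Irf9, the subunit that binds DNA, had 8.68, 8.67 and 8.19 in unstimulated cells of mice 2, 4 and 5, and 7.95, 7.58 and 7.31 with C5a. Every C5a array lay below every unstimulated array, and each mouse was at least 1.5-fold lower, with changes of -0.73, -1.08 and -0.88. The mean change was -0.90 (standard error 0.09), which is 1.86-fold lower (unadjusted p = 0.000268, adjusted p = 0.0867 from limma). Stat2, the subunit that activates transcription, had 8.44, 9.31 and 8.69 without and 8.22, 7.96 and 7.77 with C5a. Its groups did not overlap either, although mouse 2 moved little. The mean change was -0.83 (standard error 0.22), 1.78-fold lower (unadjusted p = 0.0148, adjusted p = 0.181), and the thresholds were not passed without mouse 4 or without mouse 5.

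Irf7, which amplifies the production of interferon-α, differed between the mice instead. It had 9.13, 9.29 and 7.76 in unstimulated cells and 8.10, 8.28 and 8.24 with C5a. Mice 2 and 4 were higher than mouse 5 without C5a by more than 1 log2 unit, and all 3 lay within 0.18 of each other with C5a. The changes of -1.03, -1.01 and 0.48 gave a mean of -0.52 (standard error 0.33, adjusted p = 0.565). Without mouse 5 Irf7 passed the study's thresholds.

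**Figure D2:**
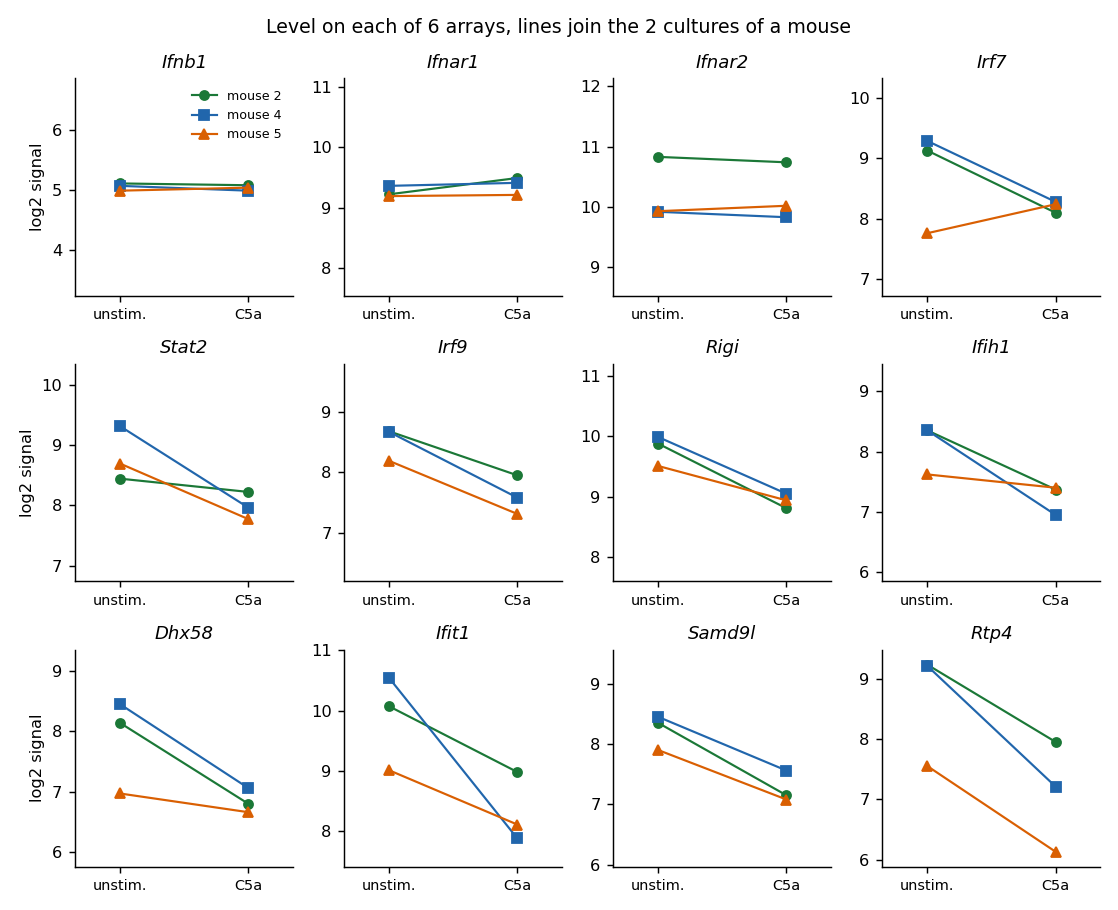
Log2 signal of 12 members on each of the 6 arrays; lines join the unstimulated and the C5a culture of a mouse, and every panel spans the same number of log2 units. Ifnb1, Ifnar1 and Ifnar2 had mean changes of -0.02, 0.11 and -0.03, Irf9, Rigi, Samd9l and Rtp4 were lower in every mouse, and Irf7 was lower in mice 2 and 4 and higher in mouse 5.

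The 4 sensors of foreign nucleic acid were lower in all 3 mice (17.7% of all probesets were). Of these sensors 3 passed the study's thresholds (1.57% of all probesets did). Rigi, listed by its older name Ddx58, encodes RIG-I, which detects viral RNA with a triphosphate end. It had 9.88, 9.99 and 9.51 without C5a and 8.81, 9.05 and 8.94 with it, groups that did not overlap, with ranges over mice of 0.48 and 0.24. The change was -0.86 (standard error 0.12), 1.81-fold lower (unadjusted p = 0.000932, adjusted p = 0.0984 from limma). Ifih1 encodes MDA5, the sensor of long double-stranded RNA, and had 8.35, 8.35 and 7.62 without and 7.37, 6.95 and 7.40 with C5a. The groups were apart, but mouse 5 was low without C5a and its change was -0.22, against -0.98 and -1.39 in mice 2 and 4. The mean change was -0.86 (standard error 0.23, adjusted p = 0.183).

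Dhx58 encodes LGP2, a regulator of RIG-I and MDA5. It had 8.14, 8.45 and 6.97 without C5a and 6.80, 7.06 and 6.66 with it, and the unstimulated culture of mouse 5 lay below the C5a culture of mouse 4. The change was -1.01 (standard error 0.24), 2.01-fold lower (unadjusted p = 0.00907, adjusted p = 0.154). Zbp1, a sensor of Z-form nucleic acid, had 6.97, 7.03 and 6.54 without and 6.54, 6.45 and 6.51 with C5a. The change of -0.35 (standard error 0.12, adjusted p = 0.277) was below 1.5-fold, and in mouse 5 it was -0.03. Without mouse 2 the thresholds were not passed by Ifih1 and Dhx58.

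Among 20 antiviral effectors all had values below 0 (10393 of all 19938 genes did). The study's thresholds were passed by 6 (1.57% of all probesets): Ifit1, Ifit2, Ifit3, Oasl2, Eif2ak2 and Samd9l. The IFIT proteins bind viral RNA and block its translation, and all 3 members of the set were lower. Ifit1 had 10.07, 10.54 and 9.01 in unstimulated cells and 8.98, 7.88 and 8.11 with C5a. The groups were apart by only 0.03, since the unstimulated culture of mouse 5 was the lowest and the C5a culture of mouse 2 the highest of its group. The mean change was -1.55 (standard error 0.37), 2.93-fold lower (unadjusted p = 0.00939, adjusted p = 0.156 from limma), and it came to -2.67 in mouse 4. Ifit2 had 7.07, 7.46 and 7.46 without and 6.60, 6.48 and 7.04 with C5a, groups that were again apart by 0.03, with a change of -0.62 (standard error 0.13, adjusted p = 0.137). Ifit3 followed Ifit1, with a mean change of -1.40 (standard error 0.43, adjusted p = 0.220) and -2.63 in mouse 4. Ifit3b, a near copy of Ifit3 outside the set, had -0.98 (standard error 0.24), and the probesets may share signal.

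Eif2ak2 encodes the kinase PKR, which stops translation when it meets double-stranded RNA. It had 9.25, 9.27 and 9.18 in unstimulated cells, a range of 0.09, and 8.61, 8.38 and 8.85 with C5a. All C5a arrays were below this narrow range, with a change of -0.62 (standard error 0.12), 1.54-fold lower (unadjusted p = 0.00469, adjusted p = 0.130 from limma). Samd9l, a restriction factor against poxviruses, had 8.35, 8.45 and 7.90 without and 7.15, 7.56 and 7.08 with C5a. Each mouse was at least 1.5-fold lower, and the change of -0.97 (standard error 0.10), 1.96-fold lower, had an unadjusted p of 0.000266 (adjusted p = 0.0867).

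The oligoadenylate synthetase family, which activates RNase L, was uneven. Of its 5 measured members of the set 5 had values below 0 and 4 were lower in all mice (17.7% of all probesets were). Only Oasl2 passed the study's thresholds (1.57% of all probesets did), with a change of -1.08 (standard error 0.32, limma's adjusted p = 0.207). Oas1a, Oas3, Oasl1 and Oas2 lay between -0.10 and -0.40, and Oas1b and Oas1c, outside the set, had -0.21 and -0.18. Oasl2 had changes of -1.31, -1.78 and -0.16 in mice 2, 4 and 5, and it did not pass without mouse 2 or without mouse 4. Members of this family are similar in sequence, and their probesets may share signal.

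Mx2 and Cmpk2 were low on the array, at the 22.4th and 39.5th percentile of all probesets. Mx2, a dynamin-like GTPase, had 5.03, 4.95 and 4.26 without C5a and 4.30, 4.18 and 4.10 with it. Its groups overlapped through the unstimulated culture of mouse 5, and the change of -0.56 (standard error 0.14, unadjusted p = 0.0127, adjusted p = 0.172) lay just under 1.5-fold. Cmpk2, a mitochondrial nucleotide kinase, had 5.73, 5.94 and 5.01 without and 5.25, 5.18 and 4.72 with C5a, a change of -0.51 (standard error 0.11, adjusted p = 0.137). It was lower within every mouse while the groups overlapped. Mx1 had a change of -0.02 (standard error 0.11) at the 32.5th percentile, and it was 0.02 and 0.19 in mice 2 and 5.

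Several effectors that are often taken as readouts of interferon did not pass the study's thresholds. Rsad2, the gene of viperin, had 6.75, 7.41 and 6.34 without C5a and 7.24, 6.58 and 6.36 with it, higher by 0.49 in mouse 2 and lower by 0.84 in mouse 4. Its mean change was -0.11 (standard error 0.26, adjusted p = 0.920 from limma). Bst2, the gene of tetherin, which holds budding virus at the cell surface, had -0.19 (standard error 0.16) and Isg20, an exonuclease, -0.11 (standard error 0.16). The IFITM proteins, which block the entry of virus, were at high levels, with 12.06 to 12.27 for the group means of Ifitm2. Ifitm1 had 6.05, 6.31 and 6.34 without and 5.75, 5.85 and 6.07 with C5a, a change of -0.34 (standard error 0.08, unadjusted p = 0.00682). It was lower in every mouse, although its second probeset had -0.10. Ifitm2 and Ifitm3 had -0.21 and -0.23 (standard errors 0.10 and 0.15), and the 3 genes are similar in sequence. Adar, the gene of an RNA-editing deaminase, had -0.33 (standard error 0.11, unadjusted p = 0.0303 from limma), and its groups did not overlap. Ifitm1 and Adar met the p threshold and missed the fold threshold only.

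Of the system of ISG15, a ubiquitin-like protein, both measured members of the set passed the study's thresholds (1.57% of all probesets did). Outside the set, Uba7 and Ube2l6, the enzymes that activate and carry ISG15, had changes of -0.18 and -0.43 (standard errors 0.09 and 0.16) and did not pass them. Usp18, which removes ISG15 and also blocks the receptor chain IFNAR2 as a feedback inhibitor, had levels of 8.20, 9.32 and 7.16 without C5a and 7.21, 6.97 and 6.69 with it. The unstimulated cultures spanned 2.16 log2 units and the C5a cultures 0.52, and the groups overlapped through mouse 5. The change was -1.27 (standard error 0.37), 2.41-fold lower (unadjusted p = 0.0199, adjusted p = 0.203 from limma). Without the block the unadjusted p of Usp18 was 0.0528, and without mouse 2 it did not pass either. Herc6, the ligase that attaches ISG15 in the mouse, had 7.08, 7.22 and 6.69 without and 6.03, 6.18 and 6.34 with C5a. These groups were apart, with a change of -0.81 (standard error 0.17), 1.76-fold lower (unadjusted p = 0.00503, adjusted p = 0.131).

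All 7 members that encode PARP and TRIM proteins, with the PARP9 partner Dtx3l, had an unadjusted p under 0.05 in the lower direction (8.58% of all probesets did). Parp9, Dtx3l, Trim21 and Trim30a also passed the fold threshold (1.57% of all probesets passed both). Parp9, which forms a complex with DTX3L, had 7.84, 8.09 and 7.44 without C5a and 6.97, 6.94 and 7.15 with it. Dtx3l, a ubiquitin ligase, had 8.07, 8.44 and 8.06 without and 7.73, 7.47 and 7.42 with C5a. Both genes had groups that were apart, with changes of -0.77 (standard error 0.18) and -0.65 (standard error 0.14) and adjusted p-values of 0.150 and 0.133 from limma. Mouse 5 moved by -0.29 for Parp9 and by -0.64 for Dtx3l.

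Trim21, a cytosolic antibody receptor and ubiquitin ligase, had the most even change of them. Its levels were 7.94, 7.96 and 7.55 without C5a and 7.32, 7.26 and 7.04 with it. The groups were apart, and the changes of -0.61, -0.70 and -0.52 gave a mean of -0.61 (standard error 0.07), 1.53-fold lower (unadjusted p = 0.000544, adjusted p = 0.0895 from limma). Parp12, a mono-ADP-ribosyltransferase, had 9.07, 9.39 and 8.55 without and 8.47, 8.63 and 8.19 with C5a. It was lower in each mouse and lay just outside the fold threshold, at 1.49-fold lower (change -0.58, standard error 0.10, unadjusted p = 0.00254). Trim30a differed more between mice than between groups, from 6.69 in mouse 5 to 9.33 in mouse 2 among unstimulated cultures. Its change of -0.75 (standard error 0.26) had an unadjusted p of 0.0367, or 0.383 without the block, and in mouse 5 it was 0.01. Parp14 and Trim25 had -0.51 and -0.35.

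The remaining 6 measured members were led by Rtp4, the gene with the largest mean change of the set, followed by Ifit1. Rtp4, a chaperone of G protein-coupled receptors that interferon induces, had 9.23, 9.21 and 7.55 without C5a and 7.95, 7.21 and 6.13 with it. The groups overlapped because mouse 5 lay more than 1 log2 unit below mice 2 and 4 in both, while within the mice Rtp4 was lower by 1.28, 2.00 and 1.41. The mean change was -1.57 (standard error 0.16), 2.96-fold lower (unadjusted p = 0.000231, adjusted p = 0.0858 from limma), and without the block the unadjusted p was 0.0474. Xaf1, a pro-apoptotic antagonist of XIAP, had 7.66, 8.02 and 7.40 without and 6.96, 7.12 and 7.17 with C5a. The groups were apart, with a change of -0.61 (standard error 0.14, adjusted p = 0.154), and Xaf1 did not pass without mouse 2 or without mouse 4. Ifi27, Helz2, Ifi35 and Lgals3bp had changes between -0.25 and -0.37, and Ifi35 was higher by 0.14 in mouse 5.

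For most members the mice differed more without C5a than with it. The unstimulated culture of mouse 5 was the lowest for 39 of 45 members (5797 of all 19938 genes). That of mouse 4 was the highest for 33 members (5783 of all genes). The change was largest in the lower direction in mouse 4 for 33 members (7026 of all genes). It was smallest in that direction in mouse 5 for 34 members (6272 of all genes). The statements on levels and on changes use the same unstimulated arrays. The median change of the set was -0.47, -0.77 and -0.20 in mice 2, 4 and 5, and 20, 29 and 6 members were at least 1.5-fold lower. In mouse 5 these were Stat2, Irf9, Ifit1, Samd9l, Dtx3l and Rtp4. The share of all genes past this fold within a mouse was not counted, so these counts have no background. For 34 members (75.6%) the range over the 3 mice was narrower with C5a than without, against 45.8% of all genes, and its median went from 0.62 to 0.45 log2 units. The range was also narrower for 13 of 17 interferon-γ GTPases and antigen presentation genes and for 23 of 34 further induced genes, described below. With 1 pair of cultures per mouse, the difference between mice in the change was not tested.

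**Figure D3:**
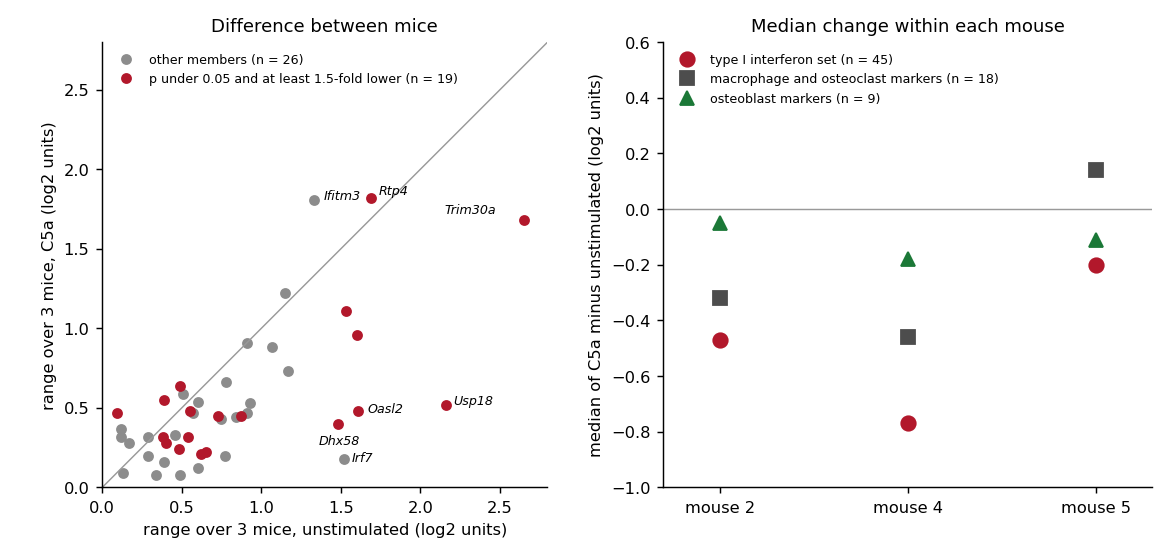
Left, range of each of 45 members over the 3 mice in log2 units without (horizontal) and with C5a (vertical); members below the diagonal, 34 of 45, differed less between mice with C5a, and 19 members that passed the study's thresholds are red. Right, median change within each mouse for the set, for 18 macrophage and osteoclast markers and for 9 osteoblast markers, with the set below 0 in all 3 mice.

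Markers of cell types also differed between the mice. The cultures had high levels of the bone matrix genes Col1a1, Col1a2 and Sparc, whose changes were -0.01, -0.05 and 0.02, whereas Ibsp, the gene of bone sialoprotein, had 11.75, 12.88 and 7.56 in unstimulated cells of mice 2, 4 and 5. Of 9 measured osteoblast markers 5 were lower in all mice (17.7% of all probesets were), and 0 passed the study's thresholds. Among these 5, Ibsp changed by -0.43 (standard error 0.09) and Phex, a gene of phosphate handling, by -0.42 (standard error 0.14). The cultures also held transcripts of macrophages and osteoclasts, such as Lyz2, Cd68, Laptm5 and Ctsk. The 18 measured markers of these cells had a median level of 5.87 to 10 in unstimulated and 6.0 to 9.48 in C5a-stimulated cultures, lowest in mouse 5 in both groups, and all 18 listed were measured. In mice 2, 4 and 5 they changed by a median of -0.32, -0.46 and 0.14. The number of markers lower with C5a was 16, 17 and 5 of 18, against 9654, 10333 and 10672 of all 19938 genes. Mrc1 alone passed the study's thresholds, with a change of -0.62 (standard error 0.11). Of the interferon set, 33 of 45 members were lower in mouse 5, against 51.1% of all probesets. The range over mice was narrower with C5a for 17 of these markers too. Their part in the lower values of the set was not tested. Lymphocyte, endothelial and plasmacytoid dendritic cell markers had median levels of 4.69 to 5.61 and median changes of -0.04 to -0.01, although Tcf4, a factor that osteoblasts also express, had -0.51 (standard error 0.07). The list of plasmacytoid dendritic cell markers shares Bst2 with the interferon set, and Bst2 was high, with group means of 11.31 without and 11.12 with C5a.

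Among genes of interferon signalling outside the set, changes went in both directions. Of 11 measured signalling genes 9 had values below 0 (10393 of all 19938 genes did). At an unadjusted p under 0.05 from limma 3 were lower and 2 higher (8.58% and 7.61% of all probesets), and only Irf1 passed the study's thresholds. Irf1, an activator that both classes of interferon induce, had 8.34, 7.85 and 7.45 without C5a and 7.80, 7.08 and 6.85 with it. It was lower by a similar amount in each mouse, although the groups overlapped, with a change of -0.64 (standard error 0.08, unadjusted p = 0.000601, adjusted p = 0.0902 from limma). The kinase gene Jak1 went the other way, with 11.05, 10.67 and 10.93 without and 11.63, 10.88 and 11.48 with C5a, a change of 0.45 (standard error 0.10, unadjusted p = 0.00735) below the fold threshold. Socs1, an inhibitor of JAK kinases, and Pias1, an inhibitor of STAT proteins, had -0.21 and -0.32 (standard errors 0.08 and 0.10).

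Of 12 measured genes that lead from the detection of nucleic acid to interferon production, 5 were lower and 2 higher at an unadjusted p under 0.05, against 8.58% and 7.61% of all probesets. Tlr3, the endosomal receptor for double-stranded RNA, had 8.00, 8.05 and 8.13 without C5a and 7.12, 7.46 and 7.60 with it. The groups were apart, mouse 5 was not the lowest here, and the change was -0.67 (standard error 0.10), 1.59-fold lower (unadjusted p = 0.00119, adjusted p = 0.100 from limma). Sting1, the adaptor for cytosolic DNA, had -0.39 (standard error 0.07) and Irf3, which switches on Ifnb1, -0.31 (standard error 0.07). Ticam1, the adaptor of TLR3, had 8.19, 8.26 and 7.98 without and 8.62, 8.59 and 8.46 with C5a, a change of 0.42 (standard error 0.07, unadjusted p = 0.00250). So the receptor gene Tlr3 was lower and the gene of its adaptor higher, with no overlap between the groups for either.

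Most induced genes outside the set were lower too. Of 34 further measured genes 30 had values below 0, 15 were lower at an unadjusted p under 0.05 and 4 passed the study's thresholds, with a median change of -0.33. Of all 19938 genes, 10393 had values below 0, 2376 were lower at that p and 440 passed in the lower direction. The difference between the 34 genes and the set was not tested. These 4 were Ifit3b, Slfn5, Phf11d and Trim12c, of which Phf11d and Trim12c were named after their values were seen. Slfn5, of the Schlafen family, had -0.66 (standard error 0.13), Parp11 -0.44 (standard error 0.08) and Mlkl, the executor of necroptosis, -0.30 (standard error 0.08). Cxcl10, a chemokine that interferons induce, had 6.48, 7.28 and 5.78 without and 7.29, 6.21 and 5.75 with C5a. As for Rsad2, mouse 2 was higher and mouse 4 lower, and the change of -0.10 had a standard error of 0.36.

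The GTPases and antigen presentation genes that interferon-γ induces most strongly were compared as the group most like the set. Of 25 listed genes 17 were measured. Of these 17, 15 had values below 0 (10393 of all 19938 genes did) and 4 passed the study's thresholds in the lower direction (440 of all genes did). Their median change was -0.24. Irgm1, a GTPase that directs autophagy to microbes, had 8.84, 9.19 and 8.08 without C5a and 7.70, 7.83 and 7.50 with it, a change of -1.03 (standard error 0.16). Tap1, the transporter that loads peptides onto MHC class I, had 8.19, 8.72 and 8.36 without and 7.08, 7.86 and 7.69 with C5a, a change of -0.88 (standard error 0.10). Both had groups that were apart. Gbp7 and Iigp1 had -1.26 and -1.20 (standard errors 0.23 and 0.30). The median change of this group in mouse 5 was 0.04, against -0.37 and -0.44 in mice 2 and 4. The difference between this group and the interferon set was not tested, and many of its genes respond to both classes of interferon.

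**Figure D4:**
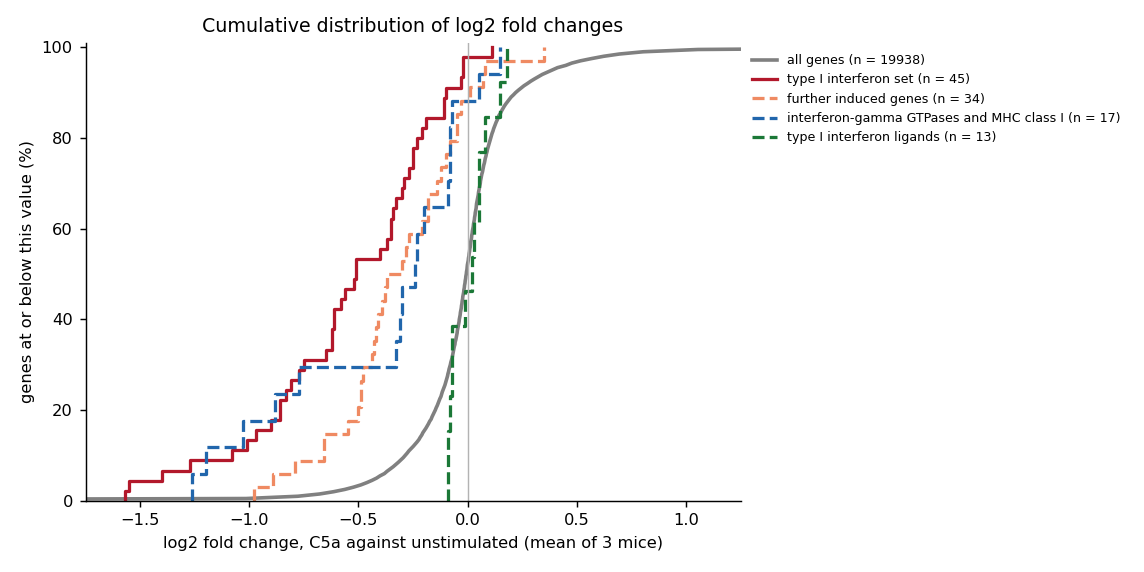
Cumulative share of genes (vertical, percent) at or below a given log2 fold change (horizontal, mean of 3 mice) for the 45 members, 34 further induced genes, 17 interferon-γ GTPases and antigen presentation genes, 13 type I interferon ligands and all 19938 genes. The median of the members was -0.51 and that of all genes -0.01, and the ligands lay close to all genes.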

How the data were processed

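RNA of 6 osteoblast cultures was measured on 6 Affymetrix mouse gene arrays, 1 per culture. The authors used Affymetrix Expression Console and BRB-ArrayTools, and deposited RMA-normalized log2 signals per probeset (RMA is the robust multiarray average); program versions are not given in the sources used here. The medians of the arrays lay between 5.89 and 5.93.

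The deposited values of all 35556 probesets were fitted as they are, unfiltered, with limma 3.58.1 in R 4.3.3 (lmFit, eBayes) and the mouse as a block, with Benjamini-Hochberg adjustment over all of them. The methods' fold threshold was read as at least 1.5. The labels give the same mouse numbers in both groups, since the cells of each mouse were split. Deviations from the group means correlated at 0.495 to 0.684 within mice and at -0.446 to -0.035 between mice. Names came from the platform annotation, by which 21789 probesets name 1 gene, 1621 several and 12146 none. A gene is represented by its probeset with the highest mean.

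Every member could be named. Values on each array are given for Stat2, Irf9, Irf7, Ifnb1, both receptor genes, 4 sensors and the 14 further members with the smallest p, and for Usp18 and Rsad2, which were added after their values were seen. Of each other list up to 4 genes with the smallest p (of marker lists, with the highest mean) were named, with Cxcl10. Phf11d, Trim12c, Mrc1, Uba7, Ube2l6, Oas1b, Oas1c and Phex were named after their values were seen. The members and lists were chosen with earlier results of these data known. The alternatives were no block, the methods' t-test and its paired form, robust eBayes with a variance trend, leaving out probesets under the 40th percentile or naming several genes or none, quantile normalization, median centring, another probeset per gene and leaving out mice or arrays. The steps were tested on simulated data. Promoters were searched with Python 3. Some results are not reported here.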

Additional observations from a re-analysis of the deposited data

How the results depend on the processing

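The direction of the median change, -0.51, and the count of 0 members higher past the study's thresholds were the same under every alternative run. The count of 19 members lower past these thresholds was 17 with no replicate block, 18 with quantile normalization, 12 with the methods' t-test and 5 with the t-test paired by mouse. Of all 35556 probesets 400, 529, 291 and 291 were lower in these fits, against 558 with limma and the block. Leaving out both arrays of a mouse gave 10 to 23 members, and leaving out 1 array without pairing by mouse gave 9 to 24. The lowest of the latter was without the unstimulated array of mouse 4 and the highest without that of mouse 5. In these 437 and 492 of all probesets were lower. The count of 0 members past the adjusted threshold became 5 when probesets under the 40th percentile were left out and 6 when only the probesets naming 1 gene were tested. In both fits Irf9, Rigi, Samd9l, Trim21 and Rtp4 passed, joined by Parp12 in the latter, and fewer tests (21334 and 21789) were adjusted for; over all probesets these fits called 373 and 795, against 4. At an unadjusted p under 0.05, 33 members were lower with the block and 23 without it.

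With quantile normalization Ifnar2 turned to 0.00 and Sparc to -0.04. Leaving out a mouse in turn changed the sign of 7 members: Ifnb1 ranged from -0.06 to 0.00, Ifnar2 from -0.09 to 0.00, Mx1 from -0.12 to 0.11, Rsad2 from -0.41 to 0.26, Oas1a from -0.24 to 0.07, Isg20 from -0.34 to 0.02 and Bst2 from -0.38 to 0.00. Outside the set Cxcl10 ranged from -0.55 to 0.39, Col1a1 from -0.06 to 0.03 and Sparc from 0.00 to 0.04.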
